A study of Homo sapiens with 26 samples.

Results

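Among 26 single cell-derived cell lines (SCDCLs) of pancreatic ductal adenocarcinoma, 12 had almost no RNA of SMAD4, a transducer of TGF-beta signaling, and the differences among these 12 clones are described here. They were selected on a measured value, a SMAD4 level under 1 TPM, a level scaled to transcript length and library size. The highest TPM of SMAD4 among the 12 was 0.0440 and the lowest among the other 14 was 28.1. SCDCLs are populations grown from 1 cell of an established line, here BxPC3 or Panc-1, both cultured in DMEM with serum. Of the 12 clones, B1, B2, B3, B4, B5, B6 and B7 are labelled Panc1, and B16, B21, B24, B25 and B26 are labelled BxPC3. BxPC3 is known to lack SMAD4 and Panc-1 to carry it, so the 7 clones labelled Panc1 go against their label. The labels also name gemcitabine as a treatment of each sample, whereas the methods describe the drug only in separate viability assays. Each clone was sequenced once, from polyadenylated RNA, so a difference between clones and a difference between cultures or preparations cannot be told apart.

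The epithelial markers chosen for these clones were present in all 12. KRT5 and KRT17, keratins of basal epithelium, ranged from 885 to 3557 and from 1613 to 4549 CPM, a level scaled to library size only, against at most 0.306 and 0.677 CPM in the 14 other clones. CDH1, which encodes E-cadherin, ranged from 262 to 556 CPM. The mesenchymal filament gene VIM reached 80.8 CPM, below the 3258 CPM that was lowest in the 14. ZEB1 and SPARC also stayed below the 14, at most 3.39 and 0.977 CPM against at least 23.8 and 7.93 CPM. The mesenchymal gene CDH2 overlapped, at 3.07 to 18.7 CPM against 8.38 to 406 CPM. The summed level of 41 listed matrix and mesenchymal genes overlapped too, at 4313 to 13490 CPM against 6763 to 11580 CPM. Of 19 marker genes of other cell types, 12 stayed under 1 CPM in each of the 12 clones, including the leukocyte gene PTPRC and the fibroblast gene LUM. The summed level of the 19 ranged from 24.2 to 89.7 CPM. CD68, a macrophage lysosomal protein that other cells also make, was at 5.67 to 31.4 CPM. CD68, PDGFRA, a growth factor receptor of mesenchymal cells (6.74 to 39.3 CPM), and CDH5, an endothelial cadherin (2.25 to 27.8 CPM), were the 3 of these markers whose mean reached 10 CPM, and all 3 were variable as defined below. Their mean was lowest in B3, at -0.725 on the log2 scale relative to the 12, and highest in B21, at 0.641. CD68 and PDGFRA fell in the largest group of genes that moved together, described below, and their part in that result was not tested. Totals ranged from 27144920 to 34945608 estimated counts, and 16376 to 17641 genes had at least 5.

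Interferon and NF-kB signaling recur below. Interferons bind receptors that act through JAK kinases and switch on interferon-stimulated genes through a DNA element called the ISRE. NF-kB, activated by inflammatory cytokines, switches on chemokines such as CXCL8 and CXCL1 through kappaB sites. Cancer-testis genes, most of them on the X chromosome, are normally silent outside the germline and are switched on in many tumors.

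Spread was measured as the SD of log2(CPM + 1) over the 12 clones. It was set beside the SD of 30 inferential replicates, which kallisto makes by redrawing the reads of a sample and which hold counting and assignment error only. For the 10080 genes whose mean reached 10 CPM, the median SD among clones was 0.26 and the median SD of the inferential replicates was 0.0394. A gene was called variable at an SD of at least 0.5 that was also at least 2 times that of its inferential replicates. This held for 927 genes, 9.2% of those examined. It held for 953 among the 5 clones labelled BxPC3 alone and for 914 among the 7 labelled Panc1 alone. In bulk RNA, fewer cells that express a gene and less of its RNA per cell cannot be told apart. An SD of at least 1 was reached by 140 genes. At the edge of the definition, EEPD1 had an SD of 0.5001 and FZD2 one of 0.4997. Over the 14 other clones, normalized on their own, the same 10080 genes had a median SD of 0.26. An SD of at least 0.5, without the condition on inferential replicates, was reached by 1034 of them in the 14 and by 952 in the 12. The 10080 were filtered on their mean in the 12 only, and genes near 0 in the 14 can show little spread there. Among the 927 variable genes, 108 stayed under 1 CPM in every one of the 14. How many of all 10080 did so was not counted, so the 108 cannot be read as particular to variable genes.

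**Figure D1:**
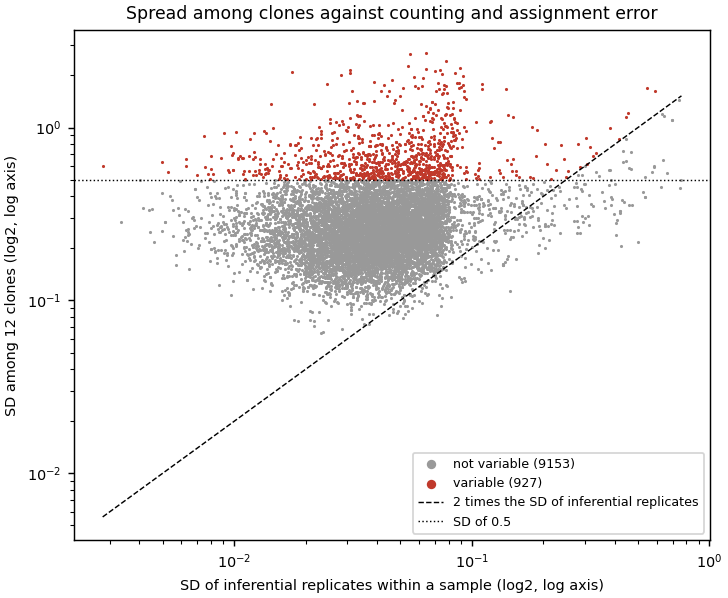
SD of log2(CPM + 1) among the 12 clones (vertical, log axis) against the pooled SD of 30 inferential replicates within a sample (horizontal, log axis), 1 point per gene. The 927 variable genes, in red, lie above the dotted line at 0.5 and above the dashed line at 2 times the inferential SD.

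Many of the largest spreads belonged to genes that moved together. Of the 25 genes with the largest SD, which ran from 1.75 to 2.68, 15 fell in the same group of genes that moved together. IFI6, IFI44L, IFI27 and RSAD2 among them are on the list of interferon-stimulated genes, and CXCL8, CXCL1, LCN2, SAA1, C3 and CSF3 on the NF-kB and inflammatory list. STC1, SPOCK1, TCN1, DUOX2 and CXCL11 are on neither. Another 4, MAGEA1, MAGEA6, EYA2 and SMIM22, fell in a second group. MAGEA1, the X-linked founder of a cancer-testis family, had the largest SD of all, 2.68 (jackknife SE 0.315). IFI6, an interferon-induced mitochondrial protein, followed with 2.64 (jackknife SE 0.464).

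**Figure D2:**
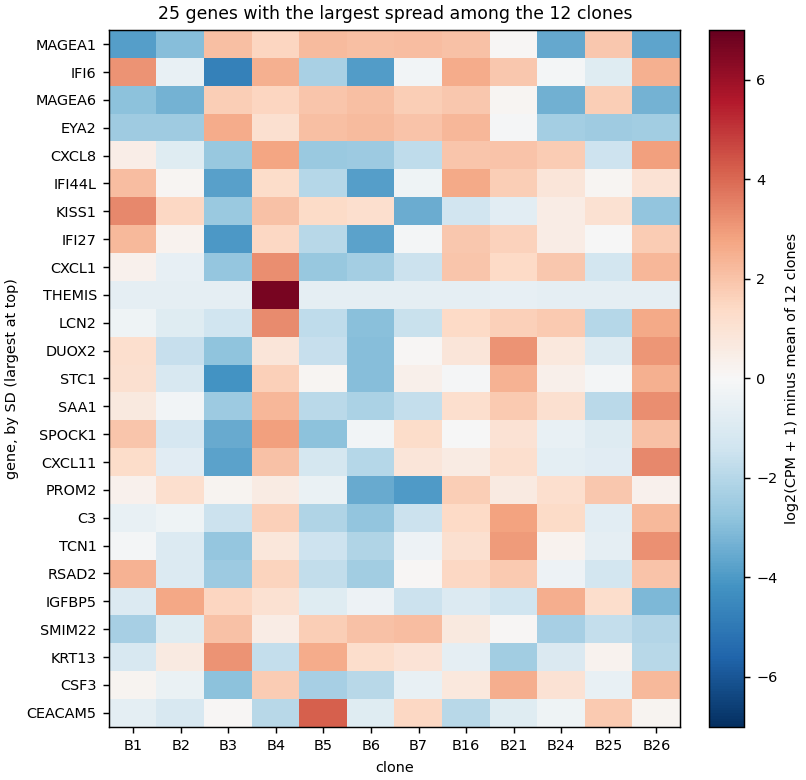
The 25 genes with the largest SD (rows, largest at the top) in each of the 12 clones (columns), as log2(CPM + 1) minus the mean of the 12. B3, B5 and B6 are blue over most interferon and chemokine rows, B4, B21 and B26 are red there, and THEMIS is red in B4 alone.

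Average linkage clustering on Pearson correlation over the 12 clones placed 829 of the 927 variable genes in 17 groups of at least 10. The groups were made from the values they describe, and each point of a correlation is 1 library. The largest held 316 genes. Its mean was lowest in B3, at -1.39 relative to the mean of the 12 on the log2 scale, and in B6 and B5, at -0.985 and -0.778. It was highest in B26, B21 and B4, at 1.07, 0.930 and 0.743. The genes closest to its mean were CDKN1A, a cell cycle inhibitor, TYMP, thymidine phosphorylase, SERPINI1, HBEGF, a ligand of the EGF receptor, RIGI, a sensor of viral RNA, and OSMR, the oncostatin M receptor. TYMP ranged from 8.67 CPM in B3 to 207 CPM in B21, and RIGI from 12.5 CPM in B3 to 254 CPM in B21.

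The upstream regions of 6 strongly varying genes of this group are shown because they hold the elements named above. They are from RefSeq (GRCh38.p14), the 250 bases before the start, 5′ to 3′ on the strand of the gene. Capitals mark the ISRE core, which is GAAA, then 2 bases of any kind, then GAAA, and the kappaB motif GGANTTTCC, each searched on both strands, and in these 6 regions no 2 marked sites overlap.
IFI6, chr1:27672193-27672442, minus strand, 3 ISRE cores: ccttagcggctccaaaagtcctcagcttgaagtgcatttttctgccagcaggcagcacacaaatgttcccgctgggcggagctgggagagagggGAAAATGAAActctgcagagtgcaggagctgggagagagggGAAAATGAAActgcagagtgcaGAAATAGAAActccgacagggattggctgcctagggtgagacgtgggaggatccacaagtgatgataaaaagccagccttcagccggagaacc
IFI27, chr14:94110486-94110735, plus strand, 2 ISRE cores: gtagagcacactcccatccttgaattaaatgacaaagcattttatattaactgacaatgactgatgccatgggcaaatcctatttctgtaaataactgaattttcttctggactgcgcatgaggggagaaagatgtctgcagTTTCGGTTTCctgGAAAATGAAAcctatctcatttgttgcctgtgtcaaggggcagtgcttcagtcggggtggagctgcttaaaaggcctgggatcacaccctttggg
IFI44L, chr1:78620198-78620447, plus strand, 2 ISRE cores: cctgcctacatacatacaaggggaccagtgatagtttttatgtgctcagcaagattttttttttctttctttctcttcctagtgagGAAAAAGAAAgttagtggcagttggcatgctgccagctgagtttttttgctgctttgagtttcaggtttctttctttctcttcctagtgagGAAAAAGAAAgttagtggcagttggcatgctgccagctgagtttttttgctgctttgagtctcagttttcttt
CXCL10, chr4:76023498-76023747, minus strand, 1 of each: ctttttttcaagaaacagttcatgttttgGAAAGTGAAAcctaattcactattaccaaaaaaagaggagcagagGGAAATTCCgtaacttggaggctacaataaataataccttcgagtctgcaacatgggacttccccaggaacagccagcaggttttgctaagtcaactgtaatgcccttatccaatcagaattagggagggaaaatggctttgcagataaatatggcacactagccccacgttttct
CXCL8, chr4:73740319-73740568, plus strand, 1 kappaB motif: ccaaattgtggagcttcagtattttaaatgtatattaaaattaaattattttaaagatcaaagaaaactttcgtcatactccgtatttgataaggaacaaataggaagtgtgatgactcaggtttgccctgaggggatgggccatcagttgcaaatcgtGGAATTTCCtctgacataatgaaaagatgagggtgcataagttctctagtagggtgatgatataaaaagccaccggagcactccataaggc
CXCL1, chr4:73869143-73869392, plus strand, 1 kappaB motif: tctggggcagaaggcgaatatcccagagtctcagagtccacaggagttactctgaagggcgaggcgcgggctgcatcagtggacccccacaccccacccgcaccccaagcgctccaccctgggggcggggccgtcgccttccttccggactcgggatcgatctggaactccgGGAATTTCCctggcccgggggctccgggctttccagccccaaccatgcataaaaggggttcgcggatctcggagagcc

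Of 9710 genes examined that had a symbol, 7942 matched the promoter table. The ISRE core stood upstream of 14.5% of the 234 matched genes of the largest group, of 3.21% of all matched genes examined, and of 3.71% of the 27305 genes of the table. For the kappaB motif these shares were 6.84%, 2.22% and 1.79%. Within the list of interferon-stimulated genes 18 of 25 held the ISRE core, and within the NF-kB list 10 of 18 held the kappaB motif. A match describes the letters of the window and not a binding site.

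Interferon genes themselves were scarcely detected. IFNB1 reached at most 0.164 CPM and IFNL1, a lambda interferon of epithelia, at most 1.42 CPM, in B26. IFNL1 was at 0.509 to 1.42 CPM in B1, B4, B16, B21 and B26, and at most 0.416 CPM in the rest of the 12. In B3, B5 and B6 it was at 0.1002, 0.033 and 0.0971 CPM. IFNB1 was at 0 CPM in B2, B3, B5, B6 and B25, and at 0.0361 CPM or more in the rest. The highest estimated counts were 4.91 for IFNB1 and 41.4 for IFNL1. A relation of these low levels to the interferon-stimulated genes was not tested. IFNA1 and IFNG had no counts in any of the 12. These genes and the receptors and signaling genes of this paragraph were chosen after their values were seen. The receptor genes IFNAR1 and IFNAR2 ranged from 49.6 to 110 CPM and from 18 to 41.3 CPM. IFNAR1 was highest in B7 and B6, at 110 and 107 CPM. Levels of the kinase genes JAK1 and TYK2 ranged from 109 to 153 CPM and from 50.1 to 84.1 CPM. IRF9, a DNA-binding subunit of the complex that recognizes the ISRE, spread further, and was at 4.04 CPM in B6 and 5.35 CPM in B3 and at 42.0 CPM in B16.

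Among the 34 interferon-stimulated genes listed, 31 were examined and 30 were variable, beside 9.2% of all genes. Of the 31, 29 belonged to the largest group, which held 316 of all 10080. Their median SD was 1.39, beside 0.26 for all genes. The list mean was lowest in B3 and B6, at -2.24 and -2.17 on the log2 scale relative to the mean of the 12. It was highest in B16, B1 and B21, at 1.41, 1.40 and 1.34. IFI6 stood at 1.80 CPM in B3, 3.94 CPM in B6, 14.5 CPM in B5, 40.5 CPM in B25, 51.2 CPM in B2, 65.0 CPM in B7, 67.0 CPM in B24, 273 CPM in B21, 420 CPM in B4, 427 CPM in B26, 454 CPM in B16 and 673 CPM in B1. The clones thus ran in steps, with 3 of them under 15 CPM and 5 above 270 CPM. IFI27 ranged from 18.2 CPM in B3 to 1469 CPM in B1 with a median of 404 CPM. IFI44L ran from 2.40 CPM in B6 to 309 CPM in B16, with a median of 71.5 CPM. RSAD2, the antiviral enzyme viperin, went from 0.334 CPM in B3 to 41.4 CPM in B1. In the 14 other clones IFI27, IFI44L and RSAD2 stayed at or below 0.253, 0.236 and 0.352 CPM.

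Of 33 NF-kB and inflammatory genes listed, 23 were examined, 18 were variable, beside 9.2% of all genes, and 17 lay in the largest group, which held 316 of all 10080. Their median SD was 1.05. The list mean was highest in B4 and B26, at 1.5 and 1.42, and lowest in B3, B5 and B6, at -1.64, -1.17 and -1.12. CXCL8, a neutrophil chemokine, was at 1.21 CPM in B3, 1.22 CPM in B5, 1.38 CPM in B6, 2.94 CPM in B7, 3.98 CPM in B25, 6.72 CPM in B2, 18 CPM in B1, 45.3 CPM in B24, 52.4 CPM in B16, 53.7 CPM in B21, 90.9 CPM in B4 and 99.9 CPM in B26. CXCL1, a related chemokine, ranged from 2.91 CPM in B3 to 244 CPM in B4 with a median of 23.3 CPM, and followed CXCL8 with r of 0.989. LCN2, an iron-binding acute-phase protein, ranged from 1.01 CPM in B6 to 149 CPM in B4. SAA1, serum amyloid A, ranged from 0.107 CPM in B3 to 60.8 CPM in B26. Complement C3 ran from 6.46 CPM in B6 to 349 CPM in B21.

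The order of the clones differed between the 2 lists, although the list means had a Pearson r of 0.881 over the 12. B1 was at 1.40 on the interferon list and at 0.330 on the NF-kB list. B24 stood at 0.118 on the former and at 0.609 on the latter. CXCL11, a chemokine that interferon induces, was highest in B26, at 291 CPM, and the oxidase gene DUOX2 was highest in B21 and B26, at 126 and 120 CPM. STC1, stanniocalcin, ranged from 11.4 CPM in B3 to 1262 CPM in B26. TNF had less than 0.001 CPM in each clone, and IL1A and IL1B, upstream cytokines of the pathway, ranged from 116 to 308 CPM and from 51.7 to 287 CPM.

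**Figure D3:**
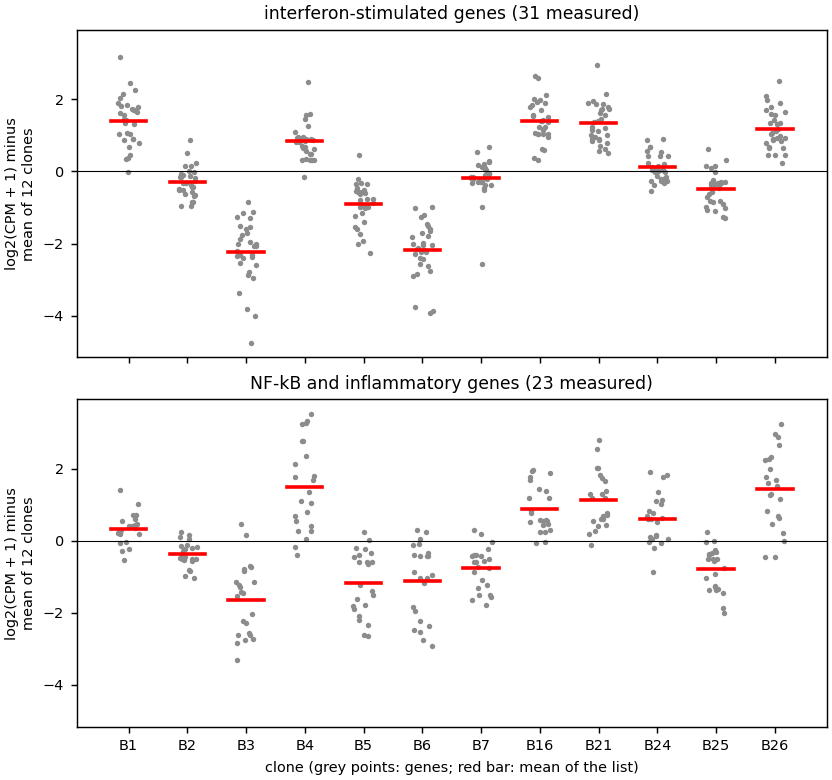
Genes of the interferon-stimulated list (top, 31 genes) and of the NF-kB and inflammatory list (bottom, 23 genes) in each clone, as log2(CPM + 1) minus the mean of the 12 clones, with the list mean as a red bar. B3 and B6 are lowest on the interferon list, and B4 and B26 are highest on the NF-kB list.

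The second group, of 118 genes, was lowest in B24 and B1, at -0.756 and -0.717, and highest in B6 and B7, at 0.691 and 0.617. Position on a chromosome had not been used to form it, and 66 of its genes, 55.9%, lay on the X chromosome, which holds 3.21% of the genes examined. Of these, 62 began at or beyond base 109624244 of the X chromosome (GRCh38), on the distal long arm. The genes closest to the group mean included UBL4A, RNF113A, HTATSF1, EMD and STEEP1, all X-linked. HTATSF1, a cofactor of transcription elongation and splicing, ranged from 40.8 CPM in B1 to 147 CPM in B6. EMD, the nuclear envelope protein emerin, ranged from 54.3 CPM in B24 to 157 CPM in B6.

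Over the 100 examined genes between 109624244 and 154486615 of the X chromosome, the median difference from the 12-clone median was -0.842 in B24, -0.677 in B2, -0.620 in B1, -0.572 in B26 and -0.399 in B21. In the other 7 clones it ran from 0.0635 in B4 to 0.335 in B6. No clone lay between these sets. Of the 100 genes, 60 were variable, beside 9.2% of all genes. The span was picked because its genes were shifted together in these same clones, so a high share follows from the choice. In B1, B21 and B26 the lower stretch began further up the arm, at 76427710, and in B2 and B24 it began at 109624244.

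MAGEA1 (ENSG00000198681, X chromosome, 153179284 to 153183880) lies in this stretch. Its level was 0 CPM in B1, 0.102 CPM in B26, 0.199 CPM in B24 and 0.793 CPM in B2, 14 CPM in B21, and 40.5 to 66.0 CPM in the other 7 clones. MAGEA6 (152766136 to 152769716) was at 0.755 to 1.44 CPM in the same 4 clones, 19.1 CPM in B21 and 51.1 to 77.7 CPM in the others. The 5 clones with the lower levels of both genes were the 5 in which the distal X stretch was lower. Both genes lie in that stretch and belong to the group that pointed to it, so this match is not separate support. A pair of neighbouring genes differed less. MAGEA12 (152733757 to 152737669) ranged only from 39.6 to 63.8 CPM and CSAG1 (152727484 to 152733735) from 15.5 to 25.9 CPM. MAGEA3, nearly identical in sequence to MAGEA6 so that reads may be split between them, ranged from 62.7 CPM in B24 to 217 CPM in B6.

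EYA2, a transcriptional coactivator on chromosome 20, and SMIM22, a small membrane protein on chromosome 16, belonged to the same group. EYA2 was at 0 CPM in B1, B2 and B25, at most 0.0632 CPM in B24 and B26, 4.30 CPM in B21, and 11.5 to 33.3 CPM in the other 6. SMIM22 ranged from 0.426 CPM in B1 to 30.8 CPM in B7. B25 separated the genes, with MAGEA1 at 53.2 CPM and no count of EYA2. Of the replication-dependent histone genes, 8 were examined and 6 were variable, beside 9.2% of all genes, with H4C8 between 17.3 CPM in B21 and 97.6 CPM in B7. These histone RNAs mostly lack a poly(A) tail, and the libraries were selected for poly(A).

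**Figure D4:**
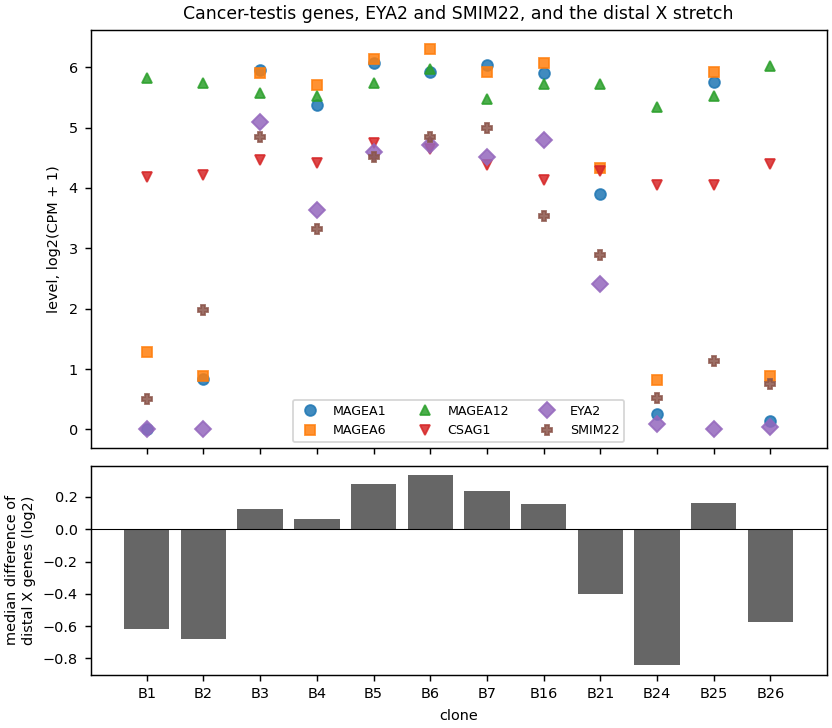
Top, level as log2(CPM + 1) of MAGEA1, MAGEA6, MAGEA12, CSAG1, EYA2 and SMIM22 in each clone. Bottom, the median difference of 100 distal X genes from the 12-clone median (log2), which is negative in B1, B2, B21, B24 and B26, the clones with the lowest MAGEA1 and MAGEA6.

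Other chromosomes also held neighbouring genes that moved together in single clones. In blocks of 50 neighbouring genes, 146 of 4248 pairs of block and clone, 3.44%, had a median at least 0.25 away from the 12-clone median. B4 had the most, with 18 blocks higher and 26 lower, and B7, B16, B24 and B25 had the fewest, 2 or 3 each. Chromosome 15 was lower along all 12 of its blocks in B4, B26 and B21, with medians of -0.500, -0.408 and -0.367 over 325 genes. In the other 9 clones its median lay between -0.0109 and 0.113. Its highest expressed genes were PKM, the glycolytic pyruvate kinase, ANXA2 and PDIA3. Chromosome 13 ran from -0.400 in B4 to 0.456 in B6 over 150 genes, and was also higher in B2, B1 and B3, at 0.370, 0.359 and 0.292. On chromosome 21, 50 genes from 32311018 to 44327376 were lower in B7, B5, B6 and B3, at -0.596, -0.506, -0.460 and -0.435, and at -0.0286 or above in the other 8. This span was mixed, since only 64% of its genes in B7, 84% in B5, 60% in B6 and 70% in B3 were lower. IFNAR1 (33324387 to 33359864) lies in this span, and its levels in B7 and B6 were the highest of the 12. A group of 38 variable genes had the same 4 clones lowest. Of these genes 17 lay on chromosome 21, 47.2% of those with a position, beside 0.917% of all genes with a position. The group and the span come from the same values in the same clones, so this match is not separate support. ETS2, a transcription factor on chromosome 21, stood at 35.7 to 48.4 CPM in these 4 clones and at 78.3 to 118 CPM in the others.

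Other stretches were seen in 1 clone or a pair, and not all of them are listed here. On chromosome 17, B4 was higher by 0.467 over 175 genes from 41966763 to 63819317, among them the integrin gene ITGA3, and lower over 175 genes from 59619684 to 82442645, at -0.468, where the actin gene ACTG1 lies. Blocks overlap, so the stretches share genes at their border. B4 was also higher by 0.319 over 250 genes of distal chromosome 9. In B16, 50 genes at the tip of the short arm of chromosome 11 (167784 to 6234711) had a median of -0.887, and the same genes had one of -0.306 in B4. In B1, 50 genes of chromosome 5 from 43065176 to 69178245, with FST, which encodes the activin inhibitor follistatin, had a median of -0.768. In B5, 100 genes of chromosome 3 from 139353946 to 184309050 had a median of -0.504. In B21, 150 genes of chromosome 19 from 29606283 to 44800652 had one of -0.283, and further lower stretches followed up to 52897693. In B1, 75 genes of chromosome 20 from 297570 to 20033655 had one of -0.474. Distal chromosome 11 was lower in B26 (75 genes, -0.366) and in B21 (50 genes, -0.2675). DNA copy number was not measured in these files.

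**Figure D5:**
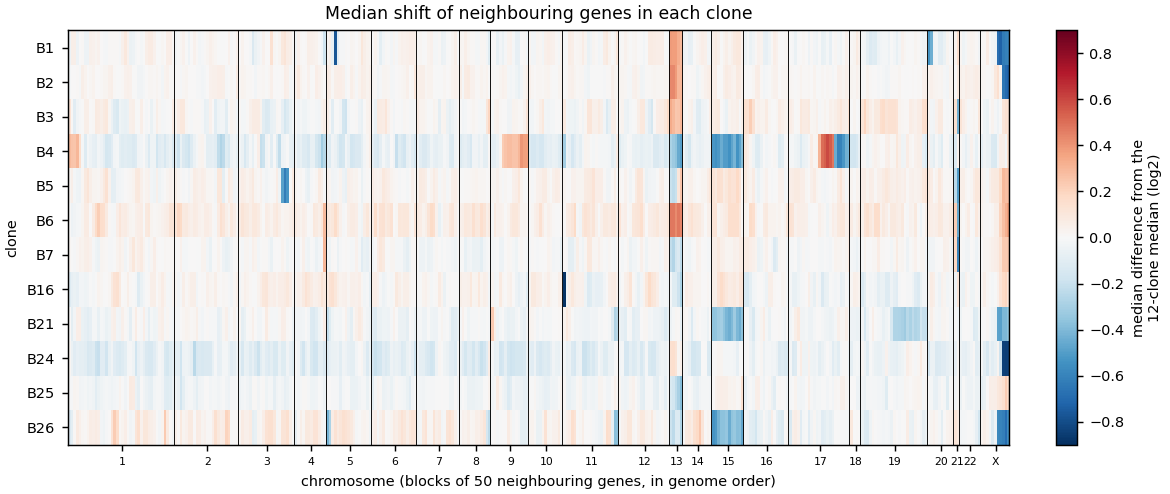
Median difference (log2) from the 12-clone median in 354 blocks of 50 neighbouring genes, in genome order by chromosome (horizontal), in each clone (vertical). Chromosome 15 is blue in B4, B21 and B26, the end of X is blue in B1, B2, B21, B24 and B26, and chromosome 17 of B4 turns from red to blue.

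A gap of at least 2 on the log2 scale between the highest clone and the next was found for 3 of 10080 genes, 0.0298%, and of these only THEMIS was near 0 in the other 11 clones. THEMIS (ENSG00000172673, chromosome 6, 127708072 to 127918631), a signaling protein of developing T cells, was at 149 CPM in B4 and at most 0.0384 CPM in the 11 others. It was also at most 0.0382 CPM in the 14 other clones, and the T cell and leukocyte gene PTPRC was at 0.202 CPM in B4. CEACAM5, the carcinoembryonic antigen, was at 209 CPM in B5 and next at 40.9 CPM in B25. NGFR, the low-affinity neurotrophin receptor, was at 134 CPM in B4 and next at 29.8 CPM. NGFR (chromosome 17, 49495293 to 49515008) lies inside the stretch that was higher by 0.467 in B4, and a relation to it was not tested. Requiring 10 CPM in the highest clone in place of the mean gave 8 of 11038 genes, 0.0725%. These added KRT4, a keratin of stratified epithelium, at 62.5 CPM in B3 with the next clone at 2.91 CPM, GRIN2B, a glutamate receptor subunit, at 19.5 CPM in B3, STAT4 at 15.4 CPM in B1, TIMM22 at 14.4 CPM in B16 and 1 gene with no symbol. TIMM22 had fractions of a count in other clones, which an uncertain assignment of reads can leave, and its value is uncertain.

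The same gap below all other clones was found for 5 of 10080 genes, 0.0496%, and TNFRSF6B and MMP1 among them were still expressed in the lowest clone. In B3, TNFRSF6B, which encodes the decoy receptor DcR3, was at 17.6 CPM with the next clone at 90.4 CPM and the highest, B4, at 319 CPM. Also in B3, MMP1, interstitial collagenase, was at 53.2 CPM with the next at 244 CPM, and EPDR1 was at 0.531 CPM with the next at 5.17 CPM. B3GALT6 in B7 and 1 gene with no symbol in B3 had inferential SDs of 0.545 and 0.742, so their reads were poorly assigned.

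Epithelial genes varied in more than 1 pattern. Of 5 examined basal keratins 2, and of 9 squamous and cornified envelope genes 2, fell in the largest group, which held 316 of all 10080. KRT13, a keratin of stratified mucosa, ranged from 28.9 CPM in B21 to 1446 CPM in B3, with 962 CPM in B5. Its pattern was opposite to IFI6, with r of -0.874 over the 12 clones. KRT14 ranged from 2.17 CPM in B3 to 166 CPM in B26 and KRT6A from 33.1 CPM in B3 to 883 CPM in B26, both lowest in B3, the clone with the highest KRT13. KRT5 and KRT17 of the same list of basal keratins went the other way and were highest in B3, at 3557 and 4549 CPM. CEACAM6 followed CEACAM5, with r of 0.972 and a range of 1.19 CPM in B4 to 67.2 CPM in B5. Sequences of the 2 genes are similar. AGR2, a disulfide isomerase of secretory cells, ranged from 6.17 CPM in B4 to 37.3 CPM in B26. KISS1, a metastasis suppressor, ranged from 0.934 CPM in B7 to 226 CPM in B1 and belonged to no group.

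Of 41 matrix and mesenchymal genes listed, 22 were examined and 18 were variable, with a median SD of 0.878, beside 9.2% and 0.259 for all genes. Of the 22, 11 fell in the largest group, which held 316 of all 10080. VIM was lowest in B5 and B3, at 1.65 and 2.18 CPM, and highest in B4, B6 and B26, at 80.8, 44.4 and 41.3 CPM. MMP9, gelatinase B, ranged from 1.64 CPM in B3 to 97.1 CPM in B1. A group of 13 with CCN2, ANKRD1, PDGFB, CLDN1 and TGFB2, of which the first 2 are known targets of the coactivator YAP, was highest in B16, at 0.902, and lowest in B7, at -0.849. CCN2 ranged from 11.8 CPM in B7 to 73.5 CPM in B2.

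None of 30 S phase genes and 1 of 30 G2M genes was variable, with median SDs of 0.281 and 0.213, beside 9.2% and a median SD of 0.259 for all genes. The one was MKI67, a marker of cycling cells, at 165 CPM in B21, 166 CPM in B1 and 499 CPM in B7. The S phase mean spanned 0.627 on the log2 scale, lowest in B24 and highest in B6, and had r of -0.734 with the interferon list. Of 21 examined genes that handle gemcitabine, 3 were variable, or 14.3% beside 9.2% of all genes. All 3 fell in the largest group of genes that moved together, which held 316 of all 10080. NT5E, an ectonucleotidase, ranged from 90.1 CPM in B3 to 966 CPM in B26, SAMHD1, a dNTP hydrolase that interferon also induces, from 46.9 CPM in B3 to 386 CPM in B16, and CDA, which inactivates gemcitabine, from 7.29 CPM in B3 to 25.1 CPM in B26.

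Among the other lists, and beside 9.2% of all genes, 6 of 16 hypoxia genes, 5 of 24 cholesterol genes, 5 of 18 NRF2 targets, 5 of 14 p53 targets, 6 of 19 immediate early genes, 3 of 16 ATF4 genes and 3 of 4 metallothioneins were variable. The largest group, with 316 of all 10080 genes, held 5 of these hypoxia genes, 5 p53 targets and 3 immediate early genes. It also held 1 cholesterol gene, 1 NRF2 target, 1 metallothionein and 0 ATF4 genes. CDKN1A, the best known p53 target, ranged from 31.8 CPM in B3 to 207 CPM in B26. NDRG1, a hypoxia gene, ranged from 31.0 CPM in B3 to 353 CPM in B26. All 13 mitochondrially encoded genes were variable, with a median SD of 0.664. Their list mean was -0.991 in B3, 0.881 in B6 and 1.11 in B26, so that B3 and B6, close on the interferon list, lay far apart here.

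In a principal component analysis of the 10080 genes, PC1 held 38% of the variance, PC2 15.4% and PC3 10.1%. PC1 ran from -32.3 in B26 to 39.4 in B3. Its largest loadings were those of KRT13, MAGEA1, MAGEA6, EYA2, SMIM22 and WNT10A on the side of B3, and of IFI6, CXCL8, IFI27, CXCL1, DUOX2 and IFI44L on the side of B26. Clones of both labels overlapped on PC1, from -25.1 to 39.4 in the 7 labelled Panc1 and from -32.3 to 6.48 in the 5 labelled BxPC3. None of 12 relations of PC1 to PC3 with technical measures passed an adjusted p of 0.05 in two-sided permutation tests. The strongest was PC2 with the number of genes that had at least 5 estimated counts (n = 12, Pearson r 0.763, permutation p = 0.00484, Benjamini-Hochberg adjusted p = 0.0581 over the 12; Spearman rho 0.594, permutation p = 0.0461, adjusted p = 0.355). Without the 2 clones farthest from the median of that measure, r was 0.381. PC1 had r of -0.505 with the share of mitochondrial counts (n = 12, permutation p = 0.0932, adjusted p = 0.258) and -0.706 without the 2 farthest clones. That share ranged from 1.08% to 3.87%, and its part in the results was not tested.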

How the data were processed

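RNA of 26 SCDCLs was sequenced from strand-specific, poly(A)-selected libraries. The authors assigned reads to the Ensembl transcriptome of GRCh38 with kallisto 0.46.1 and deposited, per gene, TPM, estimated counts (expected counts, not whole numbers) and estimated counts of 30 inferential replicates. A further 26 columns of transcript length were not used. Of 41078 genes, 36315 matched GENCODE 44 by identifier. The 12 clones were taken by a TPM of SMAD4 under 1. CPM used TMM factors over the 12 (edgeR 4.0.16 in R 4.3.3, on the estimated counts), and over the 14 others separately, with a pseudocount of 1 before log2. Other steps ran in Python 3.11.15 with scipy 1.17.1, pandas 2.3.3 and numpy 2.4.6, and were tested on simulated data. XIST and Y-linked genes were left out. A few further results are not reported here.

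With 1 library per clone there is no replicate, and no test between clones was made. The 12 relations with technical measures used 100000 permutations. The members, the 22 gene lists and the rules were chosen with earlier results of these data known. Named were the marker and check genes, the 25 genes with the largest SD, genes on or off in 1 clone (up to 15), 6 leading genes per group, up to 4 variable genes per list, 6 loadings per direction of PC1 and PC2, 3 genes per stretch, TNFRSF6B and MKI67, and not all of these are printed. Other names were chosen after their values were seen. Alternatives were DESeq2 1.42.0 size factors, totals only, other pseudocounts, filters and thresholds, TPM, and leaving out each clone.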

Additional observations from a re-analysis of the deposited data

How the results depend on the processing

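With each clone left out in turn, the count of variable genes ranged from 859 to 988, the median SD from 0.251 to 0.265, genes on in a single clone (a gap of 2 above the next) from 2 to 6, genes off (the same gap below) from 5 to 14, genes in groups from 754 to 875, the PC1 share from 32.6% to 41.7%, and shifted pairs of block and clone from 97 to 144. The highest count of genes off, 14, came without B6, the highest count on, 6, without B26, and the lowest counts on and of shifted pairs, 2 and 97, without B4. Without B5 there were 8 genes off and 2 on, and without B21 5 on. A pseudocount of 0.1 gave 13 genes off. A pseudocount of 5 gave a median SD of 0.232 and 540 genes in groups. With a mean of at least 1 CPM there were 1841 variable genes, a median SD of 0.283, 8 genes on, 8 off and 1570 in groups. With at least 30 CPM there were 516 variable, 0 on, 3 off, 434 in groups and 89 shifted pairs. The median absolute deviation gave a median of 0.245, an SD of 1 left 135 variable genes, and a gap of 1 gave 25 genes on and 54 off. Asking 10 CPM of the highest clone gave 8 genes on. PC1 held 50.8% over the 1000 most variable genes. Shifted pairs numbered 72 at a threshold of 0.4 and 381 in blocks of 25 genes. Chosen after seeing the data, the 5 clones labelled BxPC3 alone gave a median SD of 0.239 and 39 shifted pairs, and the 7 labelled Panc1 alone 0.243 and 69. PC2 against the mitochondrial share, r of -0.500, turned to 0.00483 without the 2 farthest clones. No paired analysis was possible because the labels give each clone its own number. Genes near 10 CPM are limited by counting error, and a lone clone by the lack of a replicate.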
